A study of Mus musculus with 7 samples.

Results

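The antioxidant and NRF2 target genes comprised 10 genes taken by symbol from the 25571 rows of the count table. They were Hmox1, Nqo1, Gclc, Gclm, Txnrd1, Srxn1, Slc7a11, Sod1, Sod2 and Keap1. All 10 had a row, and 9 passed the low-count filter. Nqo1 did not. They were measured by RNA sequencing of tumour-associated macrophages, isolated by sorting for the surface integrin CD11b. The 4 Pracinostat samples came from NSG mice, an immunodeficient strain without T, B and NK cells, that carried orthotopic T387 glioblastoma xenografts in the brain. These mice were given Pracinostat, an oral inhibitor of histone deacetylases, at 30 mg/kg 4 times per week for 3 weeks from day 7 after implantation. The 3 DMSO samples came from mice of the same strain with the same xenograft, dosed with the solvent mixture alone. The labels call the samples biological replicates but do not tie them to animals, and say nothing of age, sex or pooling. P-values therefore measure the spread between these samples, whatever its source.

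NRF2, encoded by Nfe2l2, is the transcription factor that switches on antioxidant genes when cells meet oxidants or electrophiles. In resting cells the adaptor KEAP1 holds NRF2 and hands it to a ubiquitin ligase for breakdown. Oxidants modify cysteines of KEAP1, and NRF2 then enters the nucleus, pairs with a small MAF protein and binds antioxidant response elements (AREs) beside its targets, a position that the repressor BACH1 can occupy. In macrophages this programme supplies glutathione and reducing power and includes heme oxygenase 1, which degrades the heme of engulfed red cells. The superoxide dismutases are antioxidant enzymes too, and in mouse and human cells Sod2 is widely described as a target of NF-kappaB.

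The libraries held 10142753 to 16950597 counts in all. The tested members had between 52 and 22082 counts per library. Itgam, which encodes the sorted CD11b, stood at 1450 to 2580 CPM (the depth-normalised read count, with library sizes scaled by the trimmed mean of M-values, TMM) in Pracinostat libraries and at 1320 to 1690 CPM in DMSO libraries. Ptprc, the leukocyte marker CD45, stood at 521 to 678 CPM with Pracinostat and at 472 to 733 CPM with DMSO. All 10 macrophage and microglia markers passed the filter. A single library of each group was rich in the collagen transcript Col1a1, Pracinostat replicate 1 (440 CPM) and DMSO replicate 2 (702 CPM). No other library exceeded 23.9 CPM with Pracinostat or 32.2 CPM with DMSO. Pracinostat replicate 1 also had the highest summed level of 8 oligodendrocyte markers, 1050 CPM, against 214 to 355 CPM in the other Pracinostat libraries and 190 to 363 CPM with DMSO.

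None of the members differed between Pracinostat and DMSO past the threshold. By edgeR's quasi-likelihood test, with p-values adjusted over 15822 genes, 0 of the 9 tested members had an adjusted p under 0.05, beside 0 (0%) of all genes tested. Without adjustment 1 member, Sod2, had a p under 0.05, beside 661 genes or 4.18% of all genes tested. DESeq2 called 25 of 18832 genes (0.133%), of which none was a member, and limma-voom also called 0 members. Negative log2 fold changes (Pracinostat minus DMSO) were fitted for 6 of the 9 members, beside 47.7% of all genes, and the median over the members was -0.11, beside 0.02 over all genes. The groups overlapped for all 9 members. Over all genes, every Pracinostat library was above every DMSO library in 3.51% and below in 2.59%.

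**Figure D1:**
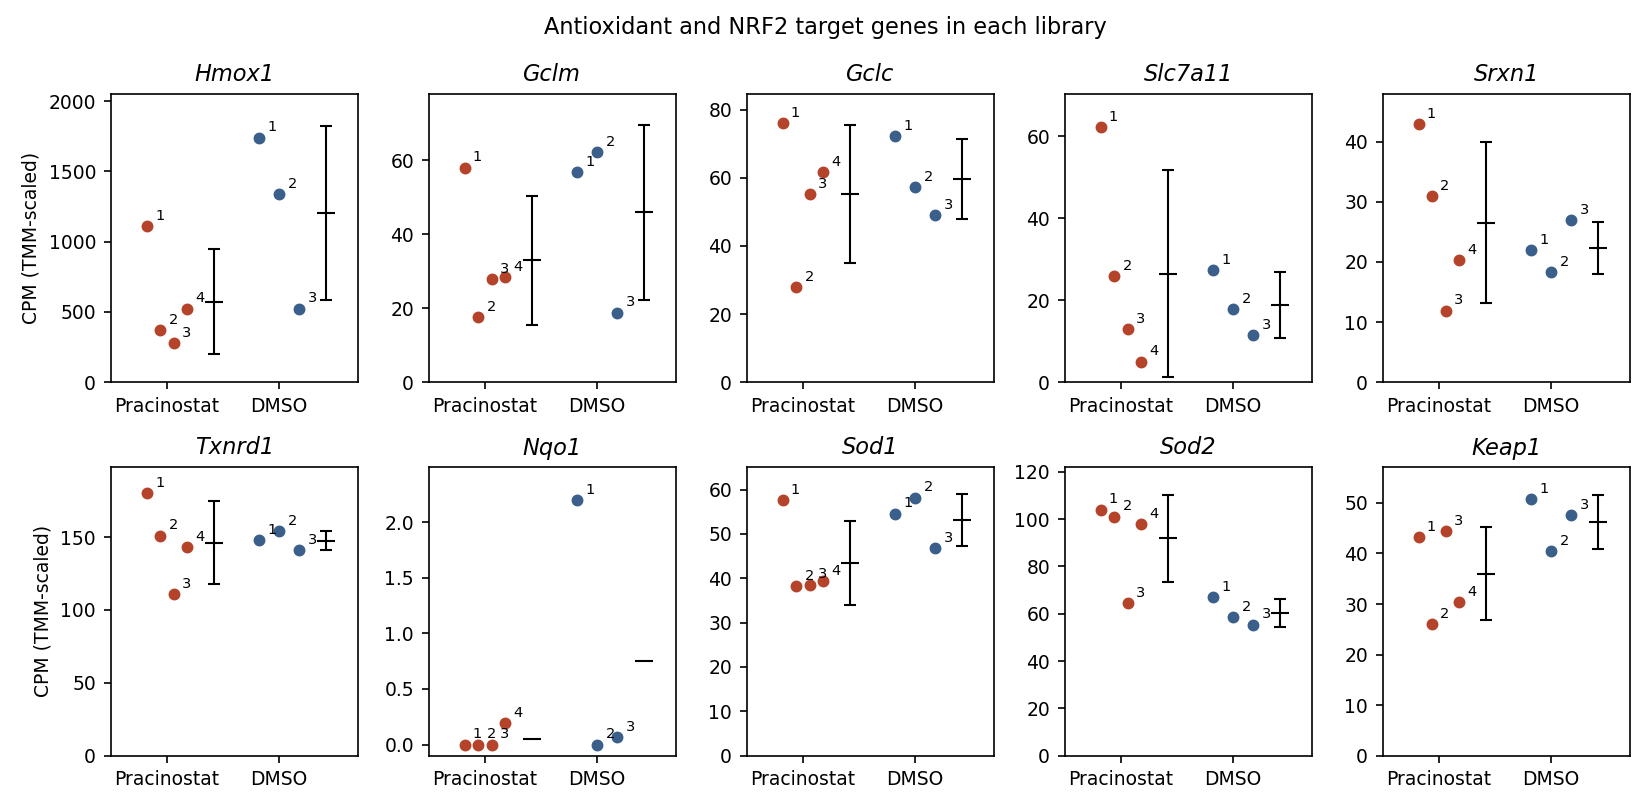
Level of each of the 10 genes in CPM (vertical axes, each with its own scale) in the 4 Pracinostat libraries and the 3 DMSO libraries. Points are libraries with their replicate number, and the black mark gives the group mean with its SD (the mean alone for Nqo1). Groups overlap for every tested gene, Hmox1 runs from 279 to 1740 CPM, and Pracinostat replicate 1 is at or near the top of most panels.

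Keap1 encodes the sensor that restrains NRF2. It stood at 43.3, 26, 44.4 and 30.3 CPM in Pracinostat replicates 1 to 4, against 50.8, 40.4 and 47.6 CPM in DMSO replicates 1 to 3. Pracinostat replicates 2 and 4 were the lowest libraries, while replicates 1 and 3 lay within the DMSO range. The fitted log2 fold change was -0.36 ± 0.24 (SE), with a 95% interval of -0.88 to 0.16 and an edgeR adjusted p of 0.9998. Without DMSO replicate 2 every Pracinostat library was below both remaining DMSO libraries, as in 6.91% of all genes with those libraries. The edgeR adjusted p of Keap1 was 0.999 there.

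Around Keap1, 13 regulators of NRF2 were measured, and 0 passed the adjusted test. On the fold change scale 10 were positive (median log2 0.11), beside 8282 of all 15822 genes (median 0.02). The list holds partners of NRF2 and its repressor Bach1 alike, so the count gives no direction for the pathway. Nfe2l2 itself averaged 361.2 ± 62.27 CPM with Pracinostat (SD, n = 4) and 280.4 ± 22.19 CPM with DMSO (SD, n = 3), a log2 fold change of 0.37 ± 0.17. Its groups overlapped, since Pracinostat replicate 3 stood at 283 CPM and DMSO replicate 3 at 304 CPM. Maff, a small MAF partner that inflammatory signals also induce, stood at 87, 100, 60.5 and 40.8 CPM with Pracinostat against 30.3, 43.9 and 47.5 CPM with DMSO (log2 fold change 0.83 ± 0.29). Pracinostat replicate 4 lay within the DMSO range of Maff. Their unadjusted p-values were 0.0437 for Nfe2l2 and 0.0124 for Maff, and the edgeR adjusted p was 0.9998 for each.

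Hmox1 encodes heme oxygenase 1, which opens heme into biliverdin, iron and carbon monoxide. It stood at 1110, 373, 279 and 523 CPM in Pracinostat replicates 1 to 4, against 1740, 1340 and 524 CPM in DMSO replicates 1 to 3. Pracinostat replicate 1 and DMSO replicates 1 and 2 were high, and the other 4 libraries, DMSO replicate 3 among them, were low. The group means were 571.2 ± 373 CPM with Pracinostat (SD, n = 4) and 1200 ± 618.4 CPM with DMSO (SD, n = 3), so that the Pracinostat mean was 47.6% of the DMSO mean. This gave a log2 fold change of -1.07 ± 0.62 (SE), with a 95% interval of -2.61 to 0.46 and an edgeR adjusted p of 0.9998. In bulk RNA of sorted cells, fewer cells that express a gene and less RNA per cell cannot be told apart. Without Pracinostat replicate 1 the log2 fold change was -1.61, and without DMSO replicate 1 it was -0.70, the ends of the range over single left-out libraries, in which the edgeR adjusted p was at least 0.897. Without DMSO replicate 3 the groups no longer overlapped, with all Pracinostat libraries below both remaining DMSO libraries, as in 7.39% of all genes there.

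The gene nearest to Hmox1 in its pattern over the 7 libraries was Slc48a1, which encodes the heme transporter HRG1 that moves heme out of phagolysosomes. Nearness was the root mean square difference of log2 CPM, each gene centred on its mean over the libraries, and it was 0.165 for Slc48a1, the smallest among 10339 genes. Slc48a1 stood at 123, 57.9, 40.7 and 65.4 CPM with Pracinostat, against 198, 180 and 69.8 CPM with DMSO. The libraries high and low for Slc48a1 were those of Hmox1, and its log2 fold change was -1.06 ± 0.47 (edgeR adjusted p = 0.9998). Next came Hic1, a transcriptional repressor (0.251), and Treml4, a receptor of myeloid cells (0.258). Treml4 stood at 20.1, 5.17, 3.57 and 5.41 CPM with Pracinostat, against 22, 24.2 and 7.02 CPM with DMSO. These distances are a description over 7 libraries.

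**Figure D2:**
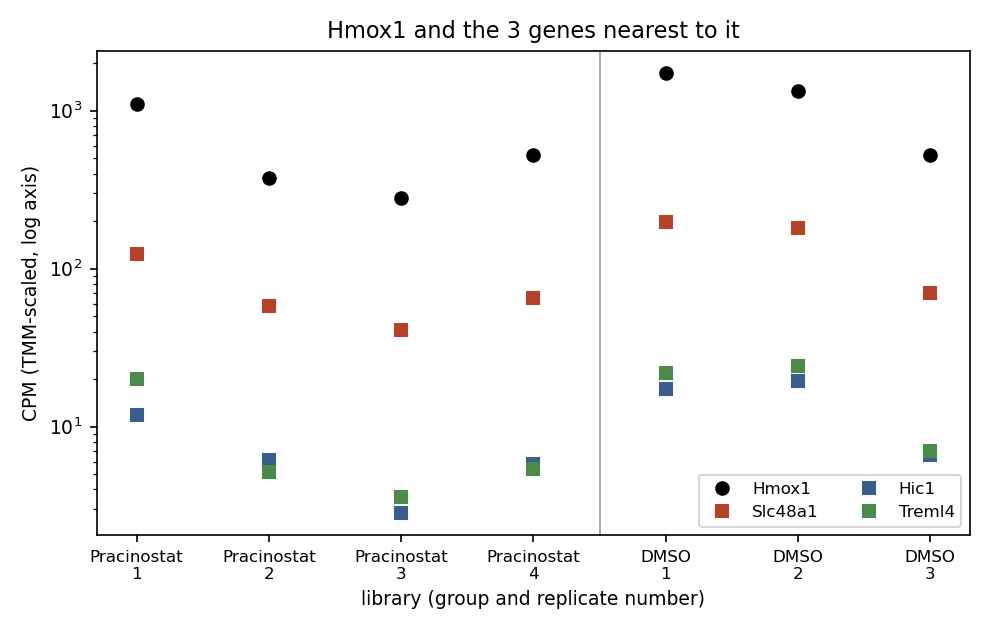
Level in CPM (vertical log axis) of Hmox1 and of the 3 genes nearest to it, in each Pracinostat and DMSO library (horizontal axis). All 4 genes are high in Pracinostat replicate 1 and in DMSO replicates 1 and 2, and low in the other 4 libraries.

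Of 8 genes of heme uptake, breakdown and synthesis beside Hmox1, 5 had negative fold changes, with a median of -0.15, and 0 passed the adjusted test. Alas1, the first enzyme of heme synthesis, was at 0.30 ± 0.22 on the log2 fold change scale, the second smallest p of the list after Slc48a1.

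Gclc and Gclm encode the catalytic and the modifier subunit of glutamate-cysteine ligase, which makes the first bond of glutathione. Gclm stood at 58, 17.5, 27.9 and 28.3 CPM with Pracinostat, against 56.8, 62.1 and 18.8 CPM with DMSO. As for Hmox1, Pracinostat replicate 1 and DMSO replicates 1 and 2 were high and the other 4 libraries low. For Gclm the log2 fold change was -0.48 ± 0.48, with a 95% interval of -1.55 to 0.60, and it was -0.90 without Pracinostat replicate 1 and -0.20 without DMSO replicate 2. Gclc stood at 76.1, 27.9, 55.3 and 61.6 CPM with Pracinostat, against 72.2, 57.4 and 49 CPM with DMSO. Here a single library, Pracinostat replicate 2, lay below the others. For Gclc the log2 fold change was -0.11 ± 0.29, and it was 0.11 without Pracinostat replicate 2 and 0.06 without DMSO replicate 1. The edgeR adjusted p was 0.9998 for both genes.

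The genes nearest to Gclm by the same measure were Commd1 (0.288), a copper-handling protein that also restrains NF-kappaB, S100a1 (0.297), a calcium-binding protein, and Dcp1b (0.31), an mRNA decapping cofactor. Commd1 stood at 35.7, 13.9, 20.4 and 20.2 CPM with Pracinostat, against 40.8, 27.4 and 15.9 CPM with DMSO. None of these distances was as small as that of Slc48a1 from Hmox1.

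Slc7a11 encodes xCT, the light chain of the cystine-glutamate exchanger that brings in cystine for glutathione, and it is a target of ATF4 as well as of NRF2. It varied most between libraries among the tested members, at 62.2, 25.8, 13 and 5.03 CPM in Pracinostat replicates 1 to 4 against 27.4, 17.8 and 11.5 CPM in DMSO replicates 1 to 3. Pracinostat replicate 1 was the highest library and Pracinostat replicate 4 the lowest, a ratio of 12.4 within the group, and the DMSO libraries lay between them. Its log2 fold change was 0.49 ± 0.78, with a 95% interval of -1.35 to 2.33 and an edgeR adjusted p of 0.9998. Without Pracinostat replicate 1 it was -0.36. Among 15 ATF4 target genes 8 were positive (median log2 fold change 0.02) and 0 passed the adjusted test. The smallest p-values were those of Mthfd2 (0.57 ± 0.31) and Sesn2 (0.60 ± 0.33).

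The promoters of Slc7a11 and Gclm are shown because both genes varied strongly between libraries and are textbook NRF2 targets. Each is the 250 bases before the RefSeq start, from build GRCm38.p6, while the submitters' notes name GRCm39 for the counts. The Slc7a11 window is chr3:50443614-50443863, minus strand, and the Gclm window is chr3:122245307-122245556, plus strand. Capitals mark the ARE core (TGACNNNGC or TGATNNNGC) and the CARE core (TGATGCAA), the element through which ATF4 acts, each searched on both strands.
Slc7a11: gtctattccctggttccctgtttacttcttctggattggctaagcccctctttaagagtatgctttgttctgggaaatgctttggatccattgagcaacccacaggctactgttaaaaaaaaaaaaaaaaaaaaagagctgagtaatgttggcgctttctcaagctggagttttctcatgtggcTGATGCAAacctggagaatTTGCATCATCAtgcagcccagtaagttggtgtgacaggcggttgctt
Gclm: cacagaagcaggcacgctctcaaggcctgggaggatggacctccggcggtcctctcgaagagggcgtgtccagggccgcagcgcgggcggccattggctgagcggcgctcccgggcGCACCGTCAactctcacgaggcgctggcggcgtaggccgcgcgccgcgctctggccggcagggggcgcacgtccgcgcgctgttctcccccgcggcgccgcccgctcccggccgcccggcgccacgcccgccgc
Both sequences are printed along the gene's own strand, and motif strands are given relative to the gene. The Slc7a11 window held the CARE core on the gene's strand, 66 to 59 bases before the start, and on the opposite strand, 47 to 40 bases before it. An ARE core lay on the opposite strand at 45 to 37 bases and overlapped the second CARE core. Gclm held a single ARE core, on the opposite strand 134 to 126 bases before the start. Of 32841 promoter windows of this length, 16.3% held an ARE core and 0.792% a CARE core, so a match to the ARE core is common, and a match is a description, not a shown site. Of the 10 members 8 had a promoter window. Hmox1 and Gclc had none, so they were not searched. ARE cores were also found for Sod1 and in 1 of the 3 windows of Txnrd1. The windows of Nqo1, Srxn1, Sod2 and Keap1 held none.

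Txnrd1 encodes the cytosolic thioredoxin reductase and Srxn1 encodes sulfiredoxin, which repairs over-oxidised peroxiredoxins. Txnrd1 stood at 180, 151, 111 and 143 CPM with Pracinostat, against 148, 154 and 141 CPM with DMSO. Pracinostat replicate 1 lay above the narrow DMSO range, replicate 3 below it and the other Pracinostat libraries within it. Fitted for Txnrd1 was a log2 fold change of -0.01 ± 0.17, with a 95% interval of -0.39 to 0.36, and its direction was positive without Pracinostat replicate 3 (0.10) or DMSO replicate 2 (0.02). Srxn1 stood at 42.9, 30.9, 11.9 and 20.3 CPM with Pracinostat, against 21.9, 18.3 and 26.9 CPM with DMSO. Pracinostat replicates 1 and 2 were the highest libraries and replicate 3 the lowest. For Srxn1 the log2 fold change was 0.25 ± 0.37, with a 95% interval of -0.55 to 1.04, and it was -0.08 without Pracinostat replicate 1. The edgeR adjusted p was 0.9998 for both genes.

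The Srxn1 promoter is shown because within 250 bases it held neither ARE core form searched (TGACNNNGC or TGATNNNGC). The window is chr2:152105274-152105523, plus strand. Capitals mark the AP-1 motif (TGANTCA), which reads the same on both strands.
Srxn1: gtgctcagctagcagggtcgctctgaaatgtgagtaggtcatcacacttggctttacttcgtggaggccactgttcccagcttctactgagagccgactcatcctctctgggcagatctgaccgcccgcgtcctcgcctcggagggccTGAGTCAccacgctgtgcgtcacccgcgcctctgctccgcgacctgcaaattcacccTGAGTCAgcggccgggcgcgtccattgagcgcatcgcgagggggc
AP-1 motifs lay 102 to 96 and 45 to 39 bases before the start, and 6.75% of all windows held this motif. The absence of an ARE core says only that the TGAC and TGAT forms were not in this window. A form with TGAG was not searched, and the AP-1 motif nearer the start is followed by GC. Whether it acts as an ARE was not tested.

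Of 18 thioredoxin and peroxiredoxin genes, 13 had negative fold changes, with a median of -0.13, and 0 passed the adjusted test. Txn1, cytosolic thioredoxin, stood at 39.1, 18.1, 14.3 and 13.1 CPM with Pracinostat, against 42.5, 27.2 and 36.7 CPM with DMSO (log2 fold change -0.74 ± 0.36). Pracinostat replicate 1 lay within the DMSO range and the other Pracinostat libraries below it. Glrx, glutaredoxin, was at 0.41 ± 0.22. Prdx1, a peroxiredoxin, stood at 282, 131, 118 and 121 CPM with Pracinostat, against 276, 214 and 168 CPM with DMSO (-0.43 ± 0.32), with Pracinostat replicate 1 again at the top. Counts of Txn1 and Prdx1 are uncertain, because processed pseudogenes may share their reads. Without Pracinostat replicate 1 the log2 fold change was -1.22 for Txn1 and -0.82 for Prdx1, and neither passed.

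Nqo1 encodes a quinone reductase that is among the most used NRF2 readouts in epithelial cells and liver. It was almost undetected, with 0, 0, 0 and 2 counts in Pracinostat replicates 1 to 4 and 28, 0 and 1 counts in DMSO replicates 1 to 3. Nearly all of its reads came from DMSO replicate 1. No fold change is given for it. It was below the low-count filter of the reported edgeR fit, and it was not called in the edgeR fit without that filter.

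Sod1 encodes the cytosolic copper-zinc superoxide dismutase. It stood at 57.7, 38.2, 38.6 and 39.3 CPM with Pracinostat, against 54.6, 58.2 and 46.8 CPM with DMSO. Pracinostat replicate 1 lay in the DMSO range and the other 3 Pracinostat libraries below all DMSO libraries. The fitted log2 fold change was -0.29 ± 0.22, with a 95% interval of -0.76 to 0.18 and an edgeR adjusted p of 0.9998. Without Pracinostat replicate 1 it was -0.45, at an edgeR adjusted p of 0.999. Every remaining Pracinostat library was then below every DMSO library, as in 4.66% of all genes there.

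Sod2 encodes the mitochondrial manganese superoxide dismutase, and it had the smallest p of the members. It stood at 104, 101, 64.6 and 97.7 CPM in Pracinostat replicates 1 to 4, against 67.1, 58.6 and 55.4 CPM in DMSO replicates 1 to 3. Pracinostat replicate 3 lay within the DMSO range, and the other Pracinostat libraries lay above every DMSO library. The group means were 91.8 ± 18.33 CPM with Pracinostat (SD, n = 4) and 60.37 ± 6.02 CPM with DMSO (SD, n = 3). The fitted log2 fold change was 0.60 ± 0.20 (SE), with a 95% interval of 0.18 to 1.03. The unadjusted p was 0.00902, rank 127 of all genes tested, and the adjusted p was 0.9998 by edgeR and 0.493 by DESeq2. Leaving out any 1 library gave log2 fold changes of 0.54 to 0.74, with edgeR adjusted p-values of at least 0.541. Without Pracinostat replicate 3 every remaining Pracinostat library was above every DMSO library, as in 5.91% of all genes there, and the same held without DMSO replicate 1, as in 8.41% of all genes there.

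The Sod2 promoter is shown because its window held the NF-kappaB consensus motif, found in 7.25% of all windows. The window is chr17:13007589-13007838, plus strand, again from GRCm38.p6, and capitals mark the motif.
Sod2: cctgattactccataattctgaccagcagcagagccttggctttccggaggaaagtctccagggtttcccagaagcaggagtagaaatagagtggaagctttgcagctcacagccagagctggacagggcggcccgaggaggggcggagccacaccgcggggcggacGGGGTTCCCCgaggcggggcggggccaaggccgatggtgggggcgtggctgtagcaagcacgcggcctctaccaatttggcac
The motif lay 83 to 74 bases before the start and was found on both strands. It was found for none of the other members with a window, and a match shows no binding. Whether NF-kappaB had a part in the Sod2 levels was not tested.

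NF-kappaB target genes were set beside Sod2, a list chosen with earlier results of these data known. All 11 were positive (median log2 fold change 0.64), beside 8282 of 15822 genes positive and a median of 0.02 over all genes, and 0 passed the adjusted edgeR test. The list does not hold every target of NF-kappaB, so the count is for these 11 genes only. Nos2, kept in the NADPH oxidase list and not in this one, had a log2 fold change of -1.41 ± 0.54. Tnfaip3, which encodes the feedback inhibitor A20, stood at 1620, 1860, 974 and 1200 CPM with Pracinostat, against 621, 853 and 826 CPM with DMSO (0.88 ± 0.21, edgeR adjusted p = 0.924). Nfkbia, which encodes IkappaB-alpha, stood at 750, 744, 555 and 560 CPM with Pracinostat, against 414, 321 and 460 CPM with DMSO (0.71 ± 0.18, edgeR adjusted p = 0.924). For both genes every Pracinostat library was above every DMSO library, and for both Pracinostat replicates 1 and 2 were the highest, as for Sod2. Pracinostat replicate 4 was near those replicates for Sod2 (97.7 CPM), while for Tnfaip3 and Nfkbia it was nearer to replicate 3. Without adjustment 5 of the 11 had a p under 0.05, all higher, beside 2.81% of all genes. In 3 of the 11, Nfkb1 being the remaining one, every Pracinostat library was above every DMSO library, beside 3.51% of all genes. Leaving out 1 library left 10 or 11 of the 11 positive.

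**Figure D3:**
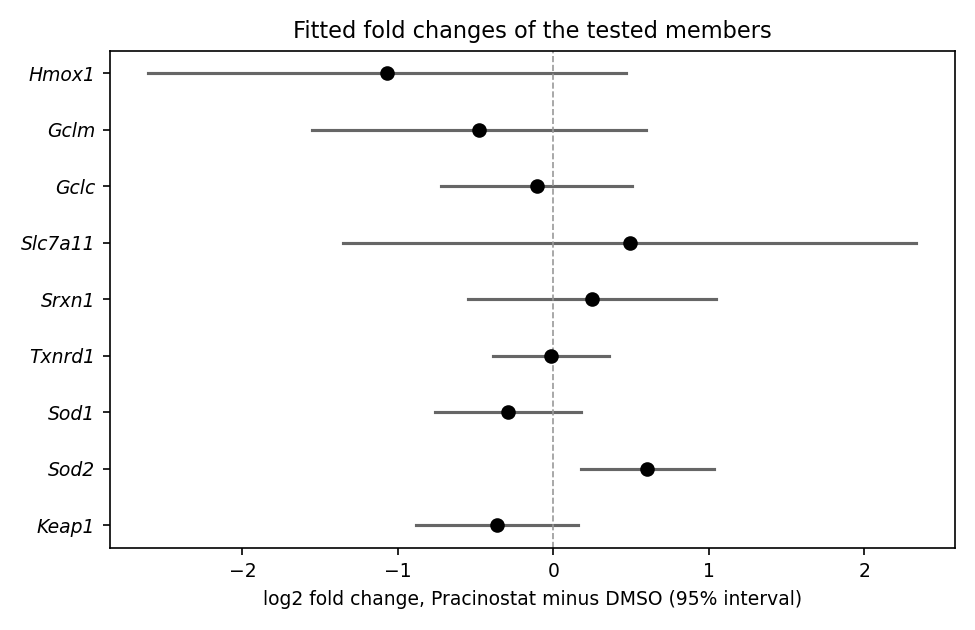
Fitted log2 fold change (horizontal axis, Pracinostat minus DMSO) of the 9 tested members, with points for the estimate and lines for the 95% interval. The interval of Sod2 (0.18 to 1.03) lies above 0 before adjustment over all genes, the other 8 include 0, and those of Slc7a11 and Hmox1 are the widest.

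Between libraries the members did not all move together. Pracinostat replicate 1 was above the 7-library mean in all 9 tested members and was the highest library for 5 of them. The lowest libraries were Pracinostat replicate 2 for 4 members, Pracinostat replicate 3 for 3, Pracinostat replicate 4 for 1 and DMSO replicate 3 for 1. DMSO replicate 1 was above the mean in 7 members and DMSO replicate 3 in 2. The mean of centred log2 CPM over the 9 members was 0.645, -0.256, -0.412 and -0.309 in Pracinostat replicates 1 to 4, against 0.381, 0.179 and -0.227 in DMSO replicates 1 to 3. Col1a1 and the oligodendrocyte markers were also high in Pracinostat replicate 1, and their part in its member levels was not tested. DMSO replicate 2, the other collagen-rich library, was the highest of all libraries for 2 members.

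**Figure D4:**
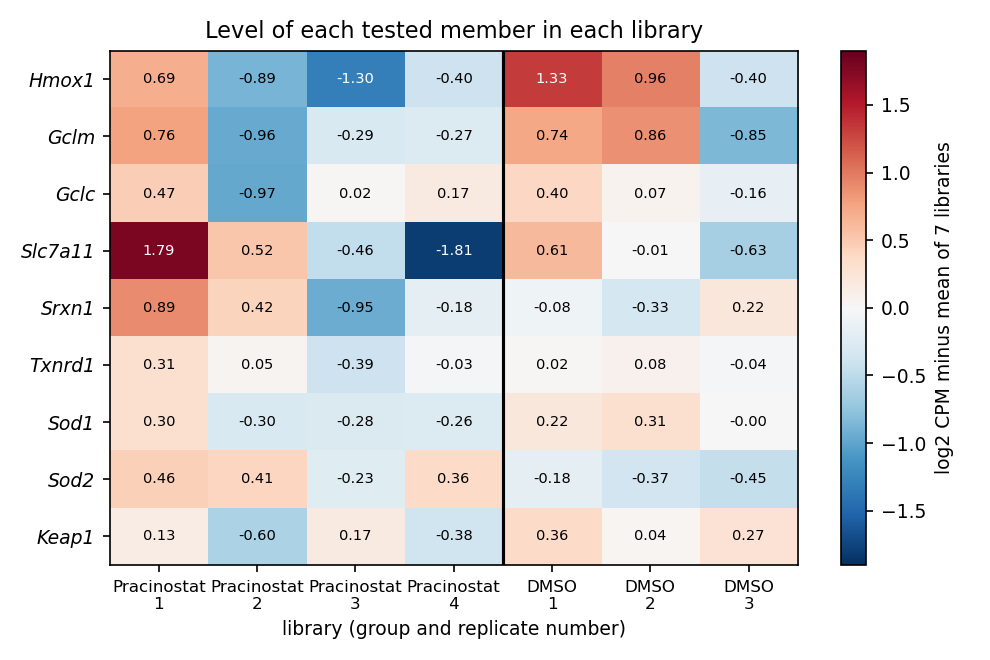
Log2 CPM of each tested member (rows) minus its mean over the 7 libraries, in each Pracinostat and DMSO library (columns), with red above and blue below the mean. The column of Pracinostat replicate 1 is positive for all 9 genes, and Sod2 has another order of libraries than Hmox1 and Gclm.

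The spread within groups set Hmox1, Slc7a11 and Gclm apart from the other members. The within-group SD of log2 CPM was 1.24 for Slc7a11, 0.88 for Hmox1 and 0.818 for Gclm. Among genes within 1 log2 unit of the same mean level, these SDs were at percentile 98 for Slc7a11, 98.7 for Hmox1 and 96 for Gclm. Gclc (0.515) and Srxn1 (0.639) were at percentiles 89.3 and 87.1. The SDs of Txnrd1 (0.226), Sod1 (0.245), Sod2 (0.266) and Keap1 (0.314) were at percentiles 31 to 51, so these genes varied about as much as others of their level. An SD percentile is a description of these libraries.

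Without Pracinostat replicate 1 the fold changes of 8 of the 9 members were negative, all but Sod2, and the median over the members was -0.36. Leaving out DMSO replicate 1 gave a median of -0.01, Pracinostat replicate 2 one of -0.03, Pracinostat replicate 4 one of -0.18 and DMSO replicate 3 one of -0.23. With both collagen-rich libraries left out 8 members were negative, the median was -0.38, and 2 of the 9 members, Sod1 and Keap1, were lower in every Pracinostat library than in every DMSO library. In that comparison of 3 libraries with 2, 10.4% of all genes separated in this direction and 21.4% in either, so nothing is read from the 2 members. None of these fits called a member.

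Other NRF2 targets were compared as a list of 25 genes, chosen with earlier results of these data known. Of the 25 genes, 24 had a row and all 24 passed the filter. Of these 21 had negative fold changes, with a median of -0.44, beside 47.7% negative and a median of 0.02 over all genes, and 0 passed the adjusted test. Without adjustment 3 had a p under 0.05, all lower, beside 1.37% of all genes. The 3 were Mgst1, Osgin1 and Gstm1. Gstm1, Ftl1, Fth1, Txn1 and Prdx1 of this list have near-identical copies, so their counts are uncertain. Mgst1, a microsomal glutathione transferase, stood at 13, 9.31, 2.05 and 3.77 CPM with Pracinostat, against 21, 29.2 and 22.1 CPM with DMSO (log2 fold change -1.77 ± 0.51). Osgin1, an oxidative stress-induced growth inhibitor, stood at 14.2, 12.7, 4.76 and 9.09 CPM with Pracinostat, against 25.2, 22.9 and 18.3 CPM with DMSO (-1.12 ± 0.38). These were the 2 genes of the list with every Pracinostat library below every DMSO library, beside 2.59% of all genes, and the edgeR adjusted p was 0.9998 for both. The 3 genes with positive values, named after their values were seen, were Sqstm1 (0.06), Ugdh (0.07) and Cbr1 (0.08).

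The size of the list's median depended on single libraries. It was -0.67 without Pracinostat replicate 1, -0.22 without DMSO replicate 1, -0.26 without Pracinostat replicate 3 and -0.27 without Pracinostat replicate 4, while 18 to 22 genes stayed negative in the fits that left out 1 library. With both collagen-rich libraries left out it was -0.60, and all 23 genes tested were negative. The mean of centred log2 CPM over the list was 0.445, -0.327, -0.815 and -0.328 in Pracinostat replicates 1 to 4, against 0.649, 0.268 and 0.109 in DMSO replicates 1 to 3. On this list Pracinostat replicate 1 lay above 2 of the DMSO libraries.

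**Figure D5:**
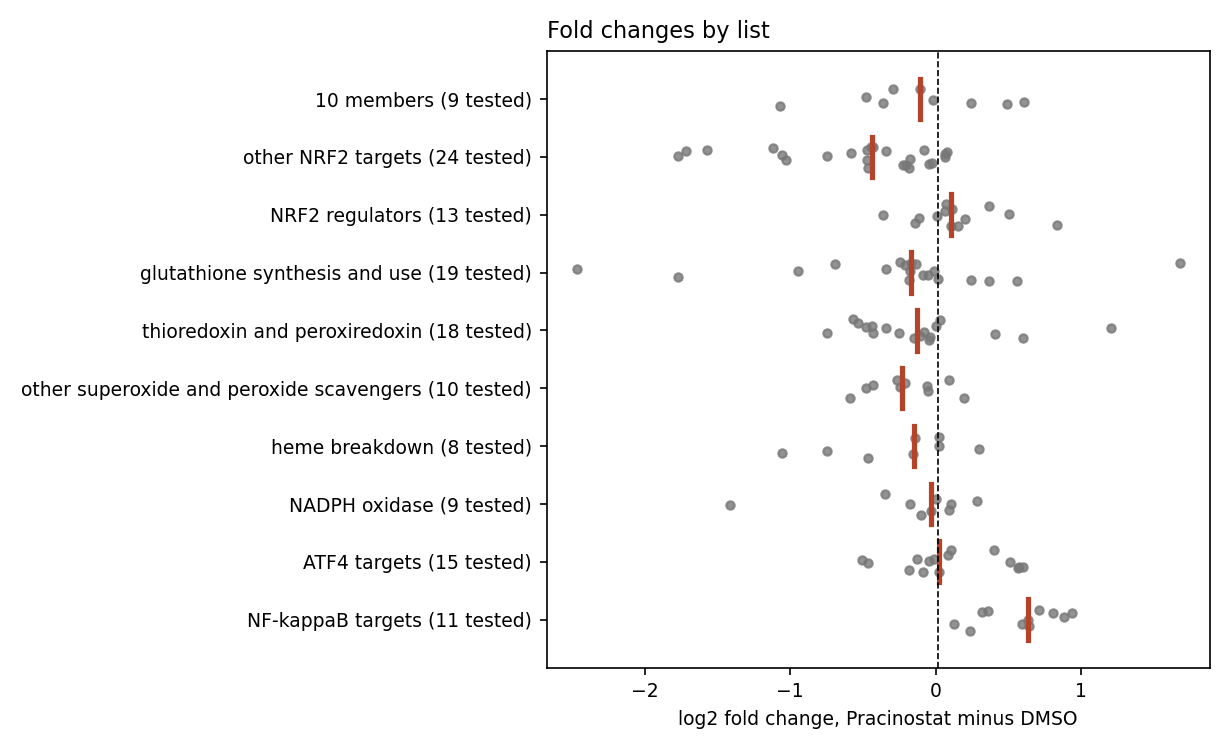
Log2 fold change (horizontal axis, Pracinostat minus DMSO) of each tested gene in the members and 9 related lists (rows). Red bars are list medians, and the dashed line is the median of all genes tested. The other NRF2 targets lie mostly left of the line (median -0.44), the NF-kappaB targets all lie right of it (median 0.64), and the members lie on both sides (median -0.11).

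The remaining antioxidant lists also held no called gene, and several genes sit in more than 1 list. Of 19 tested genes of glutathione synthesis and use, 14 were negative, with a median of -0.17. Beside Mgst1 the smallest p there was that of Ggt5, a gamma-glutamyltransferase of extracellular glutathione (-0.69 ± 0.36). Of 10 other scavengers of superoxide and peroxide, 8 were negative, with a median of -0.23. Cat, catalase, stood at 116, 67.9, 75.4 and 73.4 CPM with Pracinostat, against 110, 88.5 and 102 CPM with DMSO (-0.27 ± 0.20). As for Sod1, Pracinostat replicate 1 was high and the other Pracinostat libraries were below all DMSO libraries.

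On the side of oxidant production, 5 of 9 tested genes of the NADPH oxidase list, which also holds Nos2, were negative, with a median of -0.03. Nos2, inducible nitric oxide synthase, stood at 7.91, 4.69, 16.3 and 20.8 CPM with Pracinostat, against 52.4, 32.6 and 14 CPM with DMSO (-1.41 ± 0.54, edgeR adjusted p = 0.9998). DMSO replicate 3 lay within the Pracinostat range. Cyba, the p22phox subunit of the oxidase, was at -0.35 ± 0.21.

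Markers of other cells that a CD11b sort could carry over gave no gene past the threshold. Summed over 8 markers each, neutrophil markers stood at 366 to 468 CPM with Pracinostat and 279 to 498 CPM with DMSO, and endothelial markers at 90.1 to 402 CPM with Pracinostat and 255 to 317 CPM with DMSO. Fibroblast markers, most of whose level was Fn1, which macrophages also express, stood at 2980 to 9880 CPM with Pracinostat and 3860 to 5940 CPM with DMSO. Summed over 6 markers, astrocyte genes stood at 80.4 to 150 CPM with Pracinostat and 102 to 137 CPM with DMSO. In every list the groups overlapped, no marker was at 0 in all libraries, and the part of these cells in the members' levels was not tested. Tumour cells of the xenograft had no marker list, and their part was not tested either. The processing notes name no step that sets their reads apart.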

How the data were processed

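The authors deposited counts per gene symbol that were taken for expected counts, since the submitters' processing notes name RSEM, beside Trim Galore, FastQC, STAR, MultiQC, DESeq2 and build GRCm39, with no roles or versions. All values were whole numbers, so rounding changed none. The 3205 rows named by an Ensembl ID alone held 1.21% of counts and were kept. Libraries were made from 1 ng of total RNA with a stranded kit and read as pairs of 150 bases over 2 lanes, per the labels. No source used here gives the annotation or whether counting used strand, so antisense and overlapping genes are uncertain. A solution strength in the labels differs from the stated dose, and the dose stated with the schedule was used.

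Rows were filtered with filterByExpr (minimum count 10), scaled by TMM and tested by edgeR 4.0.16 (R 4.3.3) with a robust quasi-likelihood fit, two-sided, Benjamini-Hochberg adjusted over 15822 genes, threshold 0.05. SEs were taken from the fold change and its F statistic. The 95% intervals are for single genes. Centred log2 CPM used a prior count of 2. Named genes were the members, up to 2 genes with the smallest p per related list, Itgam, Ptprc, Col1a1, and the 3 genes nearest to Hmox1 and to Gclm. The members and lists were chosen with earlier results of these data known. On simulated counts (3 runs of 200 changed genes among 15822) 24.4% of genes changed 2-fold were called, 77.1% of those changed 4-fold and 92.9% of those changed 8-fold. The changed genes had a mean log2 CPM of at least 2. All pairs of libraries differed by more than sampling noise (chi-square over its degrees of freedom from 32.3). Alternatives were other scalings and filters, DESeq2 1.42.0, limma-voom (limma 3.58.1), a fit without robust estimation, leaving out libraries, and a replicate block. Promoter sequences are RefSeq's for GRCm38.p6.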

Additional observations from a re-analysis of the deposited data

Results flagged for a closer look

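In 34 genes named here, the gap between the highest or lowest of the 4 Pracinostat libraries and the nearest other was set against Dixon's 95% limit of 0.829 of the group's range, which chance passes in about 1 of 20 groups, and 6 genes passed it. The genes were not drawn at random. Col1a1 was named to check for libraries that stand apart, Treml4 for its nearness to Hmox1, and others by a small p. All share the same libraries, so the 6 are not read against that rate. The rule needs 4 libraries and was not applied to DMSO. In 5 of the 6 the library apart was Pracinostat replicate 1, at the top. Its Sod1 was at 57.7 CPM, against 38.2 to 39.3 CPM in the other Pracinostat libraries and 46.8 to 58.2 CPM with DMSO. Its Prdx1 was at 282 CPM, against 118 to 131 CPM in the other Pracinostat libraries and 168 to 276 CPM with DMSO. Its Cat was at 116 CPM, against 67.9 to 75.4 CPM in the others and 88.5 to 110 CPM with DMSO. Its Treml4 was at 20.1 CPM, against 3.57 to 5.41 CPM in the others and 7.02 to 24.2 CPM with DMSO. Its Col1a1 was at 440 CPM, against 11.7 to 23.9 CPM in the others and 12.4 to 702 CPM with DMSO. The sixth was Sod2, lowest in Pracinostat replicate 3 at 64.6 CPM, against 97.7 to 104 CPM in the other Pracinostat libraries and 55.4 to 67.1 CPM with DMSO. The part of the collagen and myelin transcripts of Pracinostat replicate 1 in these values was not tested.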

How the results depend on the processing

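Members called numbered 0 in the reported fit and in all 17 alternatives. In simulated counts of this size, 24.4% of 2-fold changes were called. The count of genes called, 0 in the reported fit, was 63 with no low-count filter, 25 with DESeq2 and 4 with the replicate block, and 0 to 3 when 1 library was left out (3 without DMSO replicate 3). Mgst1, Nos2, Tnfaip3 and Nfkbia were called with no low-count filter. The replicate block leaves out Pracinostat replicate 4. No label says that equal numbers pair samples, and the deviations of samples 1, 2 and 3 from their group means correlated between groups at 0.0445, -0.0352 and 0.0728. Not every sample correlated best with its own number. Members whose groups did not overlap numbered 0, with 0 to 1 when 1 library was left out and 2 without both collagen-rich libraries. Over all genes, 9.3% to 15.7% did not overlap with 1 library left out and 21.4% without both, so these counts of the 9 members are near the background. With those 2 libraries out, the log2 fold change was -0.20 for Srxn1 and -0.40 for Slc7a11, reversed against all 7. Leaving out 1 library gave ranges that cross 0 for Slc7a11 (-0.36 to 0.86), Srxn1 (-0.081 to 0.49), Gclc (-0.30 to 0.11), Txnrd1 (-0.13 to 0.10), Ptprc (-0.090 to 0.24), Commd1 (-0.62 to 0.063), Dcp1b (-0.54 to 0.061) and Col1a1 (-3.68 to 2.49). Ptprc was at -0.018 with the replicate block. Of 577 values for 34 named genes over the 17 alternatives 558 kept direction and side of the threshold. Counts of negative members and of negative other NRF2 targets were added after the data were seen, and they stayed within 1.5 times, at 5 to 8 and 18 to 23.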
